A study of Rattus norvegicus with 4 samples.

Results

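The polyamine genes followed here are 9 genes that make, break down or regulate putrescine, spermidine and spermine: Odc1, Amd1, Srm, Sms, Smox, Sat1, Oaz1, Oaz2 and Azin1. They were chosen by symbol, and every probe set annotated to only 1 of these symbols was taken, which gave 13 of the array's 20826 probe sets with 1 symbol and 9 of its 14217 genes. The samples are soleus muscle, a slow postural muscle of the hindlimb, from male Wistar rats that were 10 weeks old when the diets began and are labelled 14 weeks old. Controls ate a modified AIN-93G rodent diet with corn oil in place of soybean oil, and the genistein rats ate AIN-93G with 0.5 g of genistein, a soy isoflavone, per kg (0.05%), for 24 days in both cases. On day 14 every rat had its left sciatic nerve cut and its right leg given a sham operation, and soleus was collected 10 days after that, so the sham muscle also comes from rats with a cut nerve on the other side. The 4 groups are the sham and the denervated muscle of rats on each diet, and each is 1 pool of RNA from 8 rats on 1 Affymetrix array. There are therefore no replicates and no test, each ratio describes 2 pools, and the number of arrays limits the precision.

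Polyamines are small positively charged molecules that bind RNA and support translation and cell growth. Ornithine decarboxylase makes putrescine, and spermidine synthase and spermine synthase then add aminopropyl groups that come from decarboxylated S-adenosylmethionine. Breakdown runs through acetylation, which marks spermidine and spermine for export or oxidation, and through direct oxidation of spermine, while antizymes bind ornithine decarboxylase and send it to the proteasome.

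The signals are the authors' linear array units, and values under 78.9 units, the 40th percentile of all signals, were raised to that floor before ratios were taken. A gene counted as measured when at least 1 array of a comparison lay above the floor, and a change was counted from 2-fold upwards (1 log2 unit). Each gene was represented by its brightest probe set, and the others are given beside it. Of the 13 probe sets, 11 were above the floor on all 4 arrays, that of Smox on 3, and the dimmest of 3 for Azin1 on none. The median signal per array ranged from 121 to 133 units, and 58.5% to 60.8% of probe sets lay above the floor. The 3′ to 5′ actin signal ratio, which rises as RNA degrades, moved with the operation, from 2.08 in sham to 3.79 in denervated muscle of control rats and from 2.32 to 2.76 with genistein. The same ratio for Gapdh went the other way on both diets, and was 1.24 in sham and 1.14 in denervated muscle of control rats. Chrna1, Chrng and Myog, which respond to nerve loss, were each at least 2-fold higher in denervated muscle on both diets. They follow the titles, from which the groups were taken, and go against the treatment field of 2 samples, which contradicts their titles. All 7 skeletal muscle markers, among them the slow-fibre genes Tnnt1, Tnni1 and Myh7, were above the floor on every array, and their summed signal was 269484 units in sham against 177755 in denervated muscle of control rats, and 240191 against 149482 with genistein.

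Denervated soleus had more mRNA for the enzymes that make spermine and acetylate polyamines, and less for the enzyme that starts the pathway. Sat1 was 4.27-fold higher in denervated than in sham muscle of control rats and 5.55-fold higher with genistein, Sms was 1.94-fold and 1.99-fold higher, and Odc1 was 2.06-fold and 1.95-fold lower. The other 6 genes lay between log2 ratios of -0.63 and 0.24 in both diets. RNA came from whole muscle, so fewer cells of a type and less RNA per cell cannot be told apart. The promoters of these 3 genes, whose signals moved most, are given here from RefSeq on the GRCr8 rat build, each 300 bases from 250 before to 50 after the start site. Odc1 lies at chr6:46058415-46058714 on the plus strand, Sms at chrX:41331753-41332052 on the plus strand and Sat1 at chrX:44007839-44008138 on the plus strand. Capitals mark matches to any of the 6 motifs searched on both strands.
Odc1: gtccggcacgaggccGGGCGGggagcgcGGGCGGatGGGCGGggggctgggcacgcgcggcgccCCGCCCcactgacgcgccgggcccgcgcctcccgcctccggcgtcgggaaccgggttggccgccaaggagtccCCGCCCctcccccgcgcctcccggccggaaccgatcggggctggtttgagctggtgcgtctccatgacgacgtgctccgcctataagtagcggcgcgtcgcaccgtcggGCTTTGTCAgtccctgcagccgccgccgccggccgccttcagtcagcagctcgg
Sms: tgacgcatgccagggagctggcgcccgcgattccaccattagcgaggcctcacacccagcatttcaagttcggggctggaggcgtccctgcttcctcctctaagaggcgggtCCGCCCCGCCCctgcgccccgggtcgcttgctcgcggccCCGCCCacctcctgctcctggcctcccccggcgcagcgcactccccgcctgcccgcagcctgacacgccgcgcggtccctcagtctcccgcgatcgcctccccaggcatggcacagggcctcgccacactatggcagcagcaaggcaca
Sat1: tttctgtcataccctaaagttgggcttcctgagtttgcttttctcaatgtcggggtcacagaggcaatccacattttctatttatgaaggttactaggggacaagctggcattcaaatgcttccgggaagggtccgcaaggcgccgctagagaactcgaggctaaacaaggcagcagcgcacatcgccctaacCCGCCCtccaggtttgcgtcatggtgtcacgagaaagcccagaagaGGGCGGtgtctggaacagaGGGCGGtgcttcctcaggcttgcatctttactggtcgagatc

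Of the 9 genes, all but Azin1 matched a RefSeq promoter by symbol, which gave 8 windows. The motifs were the GC box GGGCGG, the Myc E-box CACGTG, the TATA box TATAAA, the cyclic AMP response element TGACGTCA, the antioxidant response element core TGACNNNGC and the palindromic oestrogen response element, which is GGTCA and TGACC with any 3 bases between them. GC boxes were present in 7 of the 8 promoters, all but that of Smox, and in 33.1% of the 33469 promoters of this length. In the 3 sequences shown, all capitals are GC boxes on either strand, except the run across the Odc1 start site, which matches the antioxidant element (12.1% of all promoters). In the Sms promoter 2 of the 3 GC boxes overlap. The Myc E-box was found in the windows of Srm and Oaz1 (6.42% of all promoters), and the TATA box in those of Amd1 and Oaz1 (14.2%). None of the 8 windows held the cyclic AMP element (1.83% of all promoters) or the oestrogen palindrome (0.0269%). The GC content was 77.3% for Odc1, 71.7% for Sms and 53.3% for Sat1, with a median of 51.7% over all promoters. A match describes letters only, and binding was not measured.

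**Figure D1:**
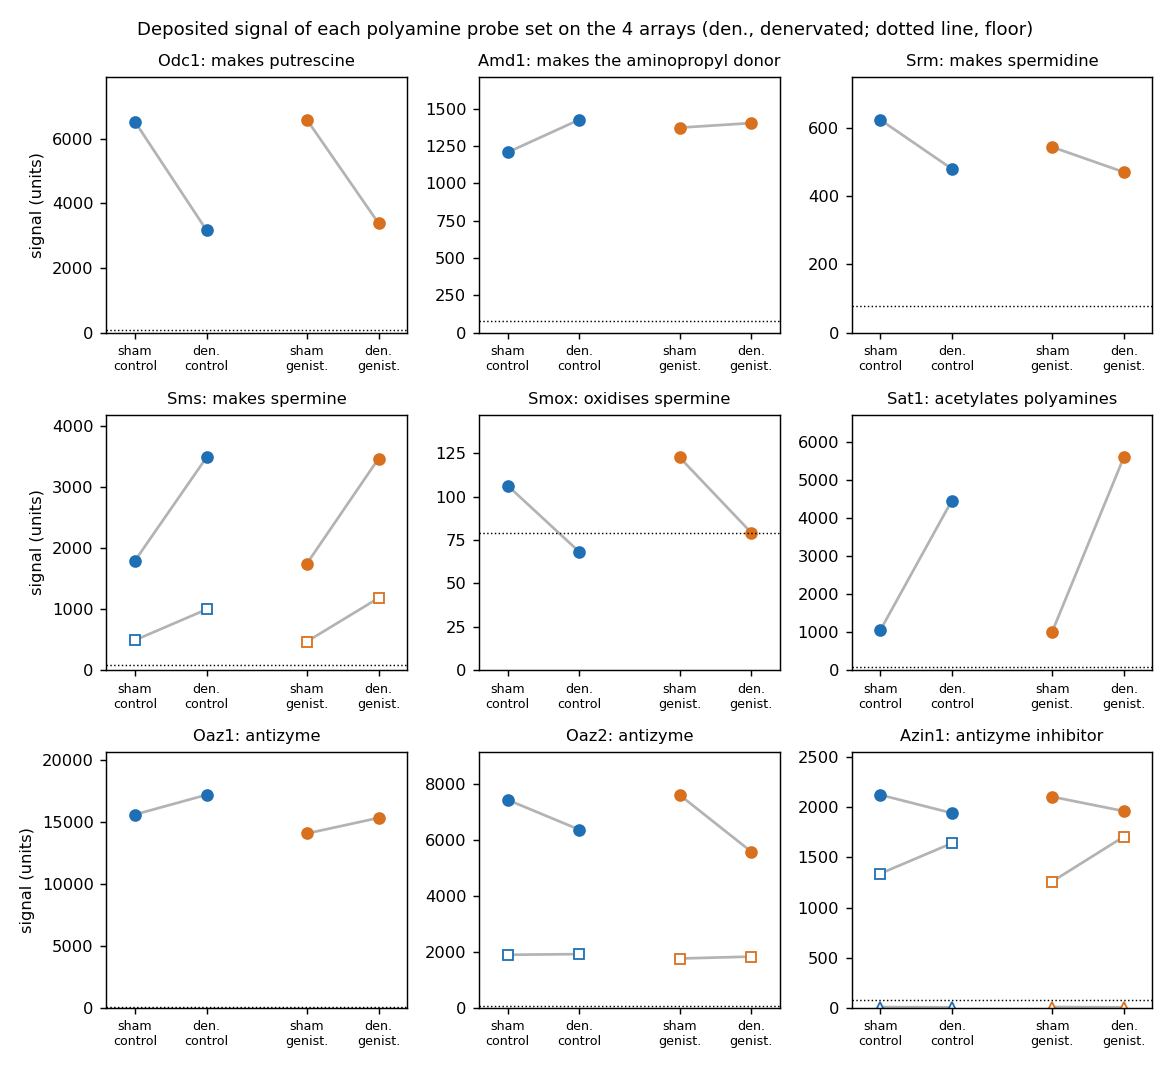
Deposited signal in array units (vertical axis from 0, a scale of its own per gene) of each polyamine probe set on the 4 arrays. Blue is control diet and orange genistein, grey lines join sham to denervated muscle within a diet, filled circles are the brightest probe set of a gene, open symbols the others, and the dotted line is the floor of 78.9 units. Odc1 is lower and Sms and Sat1 higher in denervated muscle on both diets.

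Odc1, ornithine decarboxylase, read 6524 units in control sham, 3164.5 in control denervated, 6587 in genistein sham and 3385.5 in genistein denervated muscle. The sham pools of the diets were nearly equal, and both denervated pools were well below them. The log2 ratio of denervated to sham was -1.04 on the control diet and -0.96 on genistein, so the first passed 2-fold and the second was just under it. On the control diet the ratio of Odc1 was the 745th lowest of 10755 measured genes. RefSeq lists 10 pseudogenes named after Odc1, 3 after Amd1, 2 after Sms and 2 after Oaz1, and whether the probe sets also read transcripts of these copies was not tested.

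Amd1, S-adenosylmethionine decarboxylase, which makes the aminopropyl donor, read 1207 and 1425 units in control sham and denervated muscle and 1372 and 1402 on genistein. Its log2 ratios were 0.24 and 0.03, and the second was -0.04 under quantile normalization. The genistein sham pool lay nearer to both denervated pools than the control sham pool did.

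Srm, spermidine synthase, read 625 units in sham and 481 in denervated muscle of control rats, and 545 and 471 with genistein. Both sham pools were above both denervated pools, with log2 ratios of -0.38 and -0.21. Scaling on the hybridisation controls, which shifts all genes upwards in denervated muscle, gave 0.00 and 0.33.

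Sms, spermine synthase, read 1793 and 3487.5 units in control sham and denervated muscle and 1745.5 and 3465.5 on genistein. Its second, dimmer probe set read 491 and 996 units on the control diet and 469 and 1181 on genistein. On both probe sets the denervated pools were above the sham pools in each diet. The brighter probe set gave log2 ratios of 0.96 and 0.99, just under 2-fold, and the dimmer one 1.02 and 1.33, or 2.03-fold and 2.52-fold. The adjacent steps of the chain thus differed in sign on these arrays, with Srm below and Sms above its sham level as deposited.

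**Figure D2:**
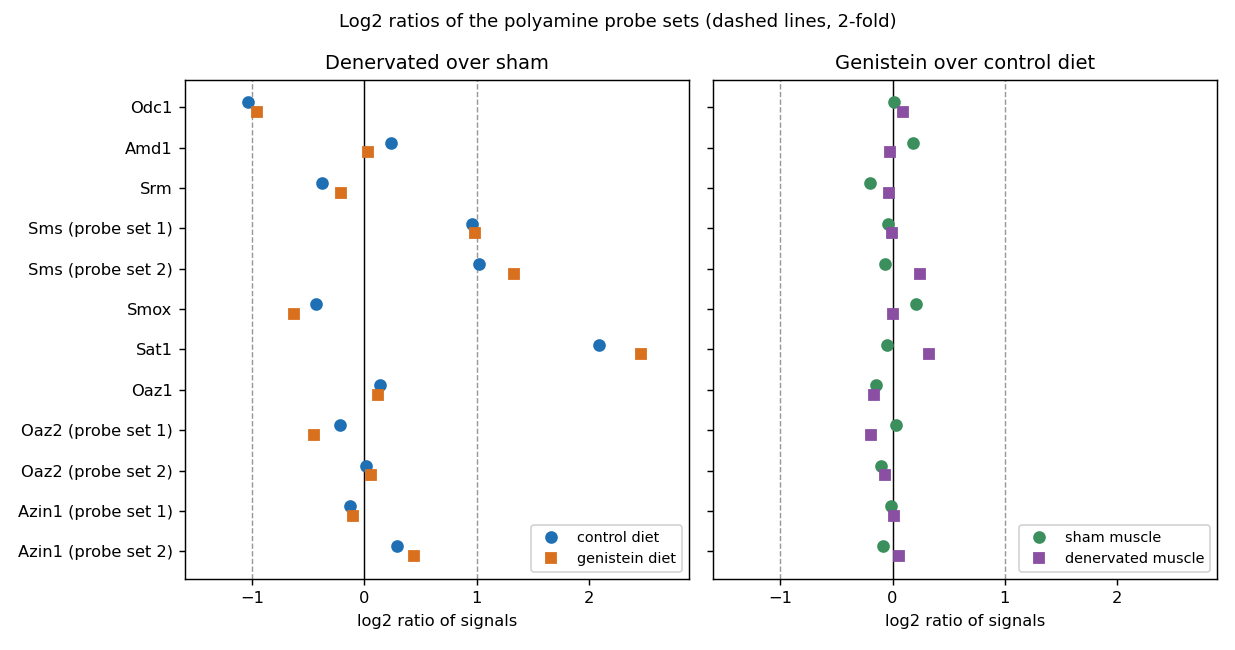
Log2 ratios (horizontal axis) of the 12 polyamine probe sets above the floor on at least 1 array. The left panel shows denervated over sham on the control (circles) and genistein (squares) diets, the right panel genistein over control diet in sham (circles) and denervated (squares) muscle, and dashed lines mark 2-fold. Denervation ratios spread from -1.04 to 2.47, while diet ratios stay between -0.20 and 0.33.

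Sat1, spermidine/spermine acetyltransferase, which is the controlled step of polyamine breakdown, read 1048 units in sham and 4470.4 in denervated muscle of control rats. With genistein it read 1011 in sham and 5609.6 in denervated muscle. The sham pools of the diets were close to each other, and the denervated pools were far above them. The log2 ratios were 2.09 on the control diet, the 95th highest of 10755 measured genes, and 2.47 on genistein, the 64th highest of 10810. Over all alternatives tried the ratio stayed between 2.06 and 2.47 on the control diet and between 2.44 and 3.01 on genistein. Sat1 has only 1 probe set on the array, so no second reading checks it.

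The summed signal of 8 macrophage and leukocyte markers, of which 7 were above the floor on all arrays and Itgam on only 1, was 6851 units in sham and 3811 in denervated muscle of control rats. With genistein it was 6956 and 6341 units. Lyz2 alone was most of each sum, at 5067, 2587, 5007 and 4287.5 units in the same order. All 7 macrophage and leukocyte markers measured in the control diet comparison were lower in denervated muscle. So were 6 of 6 fibroblast markers (43961 against 20335 units summed) and 5 of 5 endothelial markers on the array (3691.5 against 1824). On genistein 5 of 8 macrophage and leukocyte, 4 of 6 fibroblast and 5 of 5 endothelial markers were lower in denervated muscle. All 5 measured adipocyte markers were higher there, 4 of them past 2-fold with a median log2 ratio of 1.19 and a sum of 1174 units in sham against 2738 in denervated muscle, and so were 3 of 3 measured Schwann cell markers (3404 against 4408 units). On the control diet the adipocyte markers summed to 1404 and 1312 units and the Schwann cell markers to 3278 and 3314. The part of these cells in the Sat1 ratios was not tested.

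Smox, spermine oxidase, which turns spermine directly back into spermidine, was dim on every array. It read 106 units in control sham, 68.2 in control denervated, 123 in genistein sham and 79.3 in genistein denervated muscle. The denervated pools were lower than the sham pools in both diets. Because the control denervated value lies below the floor, Smox was at least 1.35-fold lower on the control diet, and it was 1.55-fold lower on genistein, with the denervated value only just above the floor. A further probe set annotated to Smox together with another gene was not used.

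No probe set of the antizymes or their inhibitor passed 2-fold between denervated and sham muscle. Oaz1, the antizyme that binds ornithine decarboxylase, read 15613 and 17202.5 units in control sham and denervated muscle and 14081 and 15339 on genistein, with log2 ratios of 0.14 and 0.12. These ratios were 0.54 and 0.65 under quantile normalization. Both genistein pools of Oaz1 were below both control pools as deposited. The log2 ratios of genistein to control diet were -0.15 in sham and -0.17 in denervated muscle. Both were smaller as deposited than the SD between probe sets of a gene (0.26 and 0.25). Over the alternatives the ratio in denervated muscle ranged from -0.30, which is larger than that SD, to 0.03.

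Oaz2, a second antizyme, read 7437 and 6372 units on the control diet and 7616 and 5587 on genistein with its brighter probe set. Its other probe set read 1895 and 1918, and 1760.3 and 1829. The first gave log2 ratios of -0.22 and -0.45, which became 0.16 and 0.09 under hybridisation control scaling, and the second 0.02 and 0.06, so no common direction was measured.

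Azin1, the antizyme inhibitor, which resembles ornithine decarboxylase and sequesters antizyme, read 2125 and 1943 units on the control diet and 2106 and 1963 on genistein. Its second probe set read 1339 and 1642, and 1259.7 and 1707.5, and its dimmest between 3.5 and 7.0 units, far below the floor. The brighter probe set gave log2 ratios of -0.13 and -0.10 and the second 0.29 and 0.44. The direction for Azin1 therefore depends on the probe set.

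As a measure of scatter, the ratios of probe sets of the same gene varied about their mean with an SD of 0.35 log2 units for denervation on the control diet and 0.36 on genistein, over 2310 genes. Only genes with more than 1 probe set above the floor on all 4 arrays entered it. This SD leaves out scatter between pools. Sat1, Sms and Odc1 differed from 0 by more than this SD in both diets, and Srm on the control diet only (as deposited). The ratios of Smox were also larger, but Smox was above the floor on only 3 arrays, so an SD from brighter signals does not describe it. Oaz2 and Azin1 each exceeded the SD with genistein on 1 probe set, and these pointed in opposite directions.

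Counted at 2-fold, 1 of 9 genes was higher in denervated muscle on the control diet (Sat1), beside 5.04% of all measured genes, and 1 was lower (Odc1), beside 7.63%. On genistein 1 was higher (Sat1), beside 4.96%, and 0 were lower, beside 6.57%. With 9 genes 1 call is close to these backgrounds, so the counts do not set the pathway apart. The median log2 ratio of the 9 genes was -0.13 and -0.10, and that of all measured genes was -0.0029 and 0.022. Ratios as large as that of Sat1, in either direction, were found in 1.80% and 1.16% of measured genes in control and genistein rats, against 13.6% and 11.8% for Sms and 11.5% and 12.4% for Odc1.

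**Figure D3:**
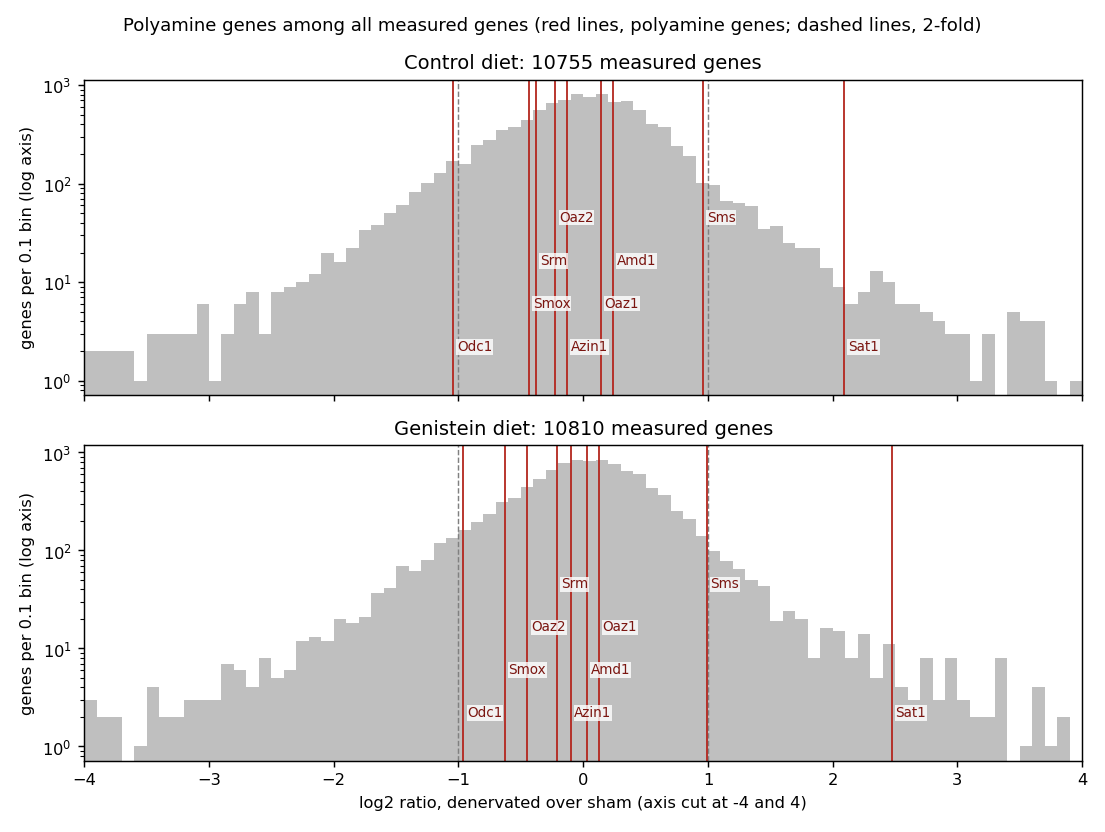
Number of measured genes (log axis) per 0.1 log2 units of the denervated to sham ratio, for control rats (10755 genes) and genistein rats (10810 genes), with the axis cut at -4 and 4. Red lines mark the 9 polyamine genes, each named just to the right of its line or beside it, and dashed lines mark 2-fold. Sat1 lies in the upper tail of both panels, and 6 of the 9 genes lie between -0.63 and 0.24.

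The diets differed little in these genes. In sham muscle the log2 ratio of genistein to control diet lay between -0.20 (Srm) and 0.21 (Smox), with 0 of 9 genes past 2-fold beside 0.324% of measured genes higher and 0.287% lower. The scatter between probe sets of a gene was 0.26 in that comparison, above the ratio of every polyamine gene. In denervated muscle the ratios lay between -0.19 (Oaz2) and 0.33 (Sat1), again with 0 of 9 past 2-fold, beside 1.02% higher and 0.124% lower.

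Sat1 in denervated muscle was 1.25-fold higher on genistein, and its log2 ratio of 0.33 was the only one of the 9, on the brightest probe sets, above the probe set scatter of 0.25 in that comparison. A ratio at least as large in either direction was found in 23.9% of 10479 measured genes. In the same comparison 7 of 7 measured macrophage and leukocyte markers and 6 of 6 fibroblast markers were higher on genistein (median log2 ratios 0.73 and 0.68). So were 5 of 5 measured adipocyte, 5 of 5 endothelial and 3 of 3 Schwann cell markers (1.06, 0.54 and 0.59). All 7 skeletal muscle markers, 3 of 3 measured erythrocyte markers and the 1 measured satellite cell marker were lower (-0.23, -0.66 and -0.59). The part of these cells in the Sat1 diet ratio was not tested. In denervated muscle of control and genistein rats the adipocyte markers summed to 1312 and 2738 units and the fibroblast markers to 20335 and 33157, and Lep was below the floor on all arrays.

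The difference between the denervation effects, genistein minus control, was 0.38 log2 units for Sat1, -0.22 for Oaz2 and -0.21 for Amd1, and between -0.20 and 0.17 for the other 6 genes. None of the 9 passed 2-fold, beside 2.00% of 10414 genes with a difference of at least 2-fold upwards and 0.739% downwards. This comparison uses all 4 arrays, and the diet and denervation comparisons share pools, so they are not independent.

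By profile over the 4 arrays, the genes most like Sat1 were Mxra7, Lrp4, Gstm1, Cd24 and Acsl3, in this order. The measure was the Euclidean distance between log2 signals after each gene's own mean was subtracted, and 9362 genes above the floor on all arrays were compared. Mxra7, the nearest, read 682 and 2639 units on the control diet and 629 and 3304 on genistein, at a distance of 0.12 log2 units. Acsl3, an acyl-CoA synthetase and the fifth, was at a distance of 0.28. All 5 were higher in denervated muscle on both diets, which follows from their choice by likeness to Sat1.

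Around the 9 genes, 52 further genes of ornithine, methionine, transport, hypusine and regulatory steps were listed, of which 45 were on the array under that symbol. In each diet 37 were measured, with 4 at least 2-fold higher in denervated muscle, and 1 lower on the control diet and 0 on genistein. Of all measured genes, 5.04% and 4.96% were higher and 7.63% and 6.57% lower by this size on the control and genistein diets. Their median log2 ratios were 0.02 and 0.04.

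Of the 8 measured genes of arginine and ornithine supply, 1 was at least 2-fold lower after denervation in control rats (Slc7a1) and 0 with genistein, and 0 were higher by this size on either diet. Slc7a1, the cationic amino acid transporter that brings arginine into cells, read 487 and 119 units in control sham and denervated muscle and 274 and 143 on genistein. The log2 ratios were -2.03 and -0.94, but its second probe set gave -1.04 and -0.71. The control sham pool was far above the genistein sham pool on the first probe set, at 487 against 274 units, and not on the second, at 296 against 272. The gap between its ratios passed 2-fold on the first probe set and was 0.33 log2 units on the second. Slc25a15, the mitochondrial ornithine carrier, had ratios of -0.60 and -0.99, and its other measured probe sets lay between -1.54 and -0.30. Oat, ornithine aminotransferase, was level at 0.06 and 0.10. Arg1, an arginase, was dim and had ratios of 0.55 and 0.83, and Arg2 was below the floor on all arrays.

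Among the methionine genes, Ahcy, which clears S-adenosylhomocysteine, read 1168 and 2344.5 units on the control diet and 1356 and 2140 on genistein. It was 2.01-fold and 1.58-fold higher in denervated muscle, and the difference of -0.35 between the diets was not tested. Mat2a, which makes S-adenosylmethionine, was at -0.11 and -0.23, and these values became positive under hybridisation control scaling (up to 0.31). A dimmer Mat2a probe set, also above the floor, read 591 and 536 units on the control diet and 406 and 569 on genistein. That gave log2 ratios of -0.14 and 0.49, so the sign for Mat2a on genistein differed between these probe sets.

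Paox, which oxidises acetylated polyamines after Sat1 has acted, read 514 and 326 units on the control diet and 508 and 361 on genistein, with log2 ratios of -0.66 and -0.49. It was lower where Sat1 was higher, although its genistein ratio was 0.05 under hybridisation control scaling. Of 7 measured transport genes, Slc18b1, a vesicular polyamine transporter, passed 2-fold on genistein with ratios of 0.47 and 1.37. Slc3a2 was level at 0.02 and 0.03.

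Spermidine also supplies the hypusine residue of translation factor Eif5a. Eif5a read 4272 and 4315 units on the control diet and 4412 and 4080.1 on genistein, with log2 ratios of 0.01 and -0.11. The enzymes that build hypusine, Dhps (-0.04 and -0.15) and Dohh (0.13 and 0.19), were also within 0.2 of 0, as deposited. Eif5a2, the remaining measured gene of the hypusine list, was dim and not level on the control diet. Its ratios were -0.53 and 0.003, and -0.34 and -0.28 on its second probe set.

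Among regulators, Myc, a transcription factor known to drive Odc1, read 140.0 and 475 units on the control diet and 146 and 421 on genistein. Its partner Max had log2 ratios of 1.46 and 1.15, and 0.80 and 1.24 on a second, dimmer probe set. Myc and Max were both higher in the muscles in which Odc1 was lower, and whether Myc acted on Odc1 here was not tested. Cdkn1a, the cell cycle inhibitor p21, read 1044 and 9979 units on the control diet and 907 and 9173 on genistein. Its log2 ratios were 3.26 and 3.34, and those of its second, dimmer probe set were 4.69 and 4.65. Atf4, a stress transcription factor, was at -0.83 and -0.84.

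**Figure D4:**
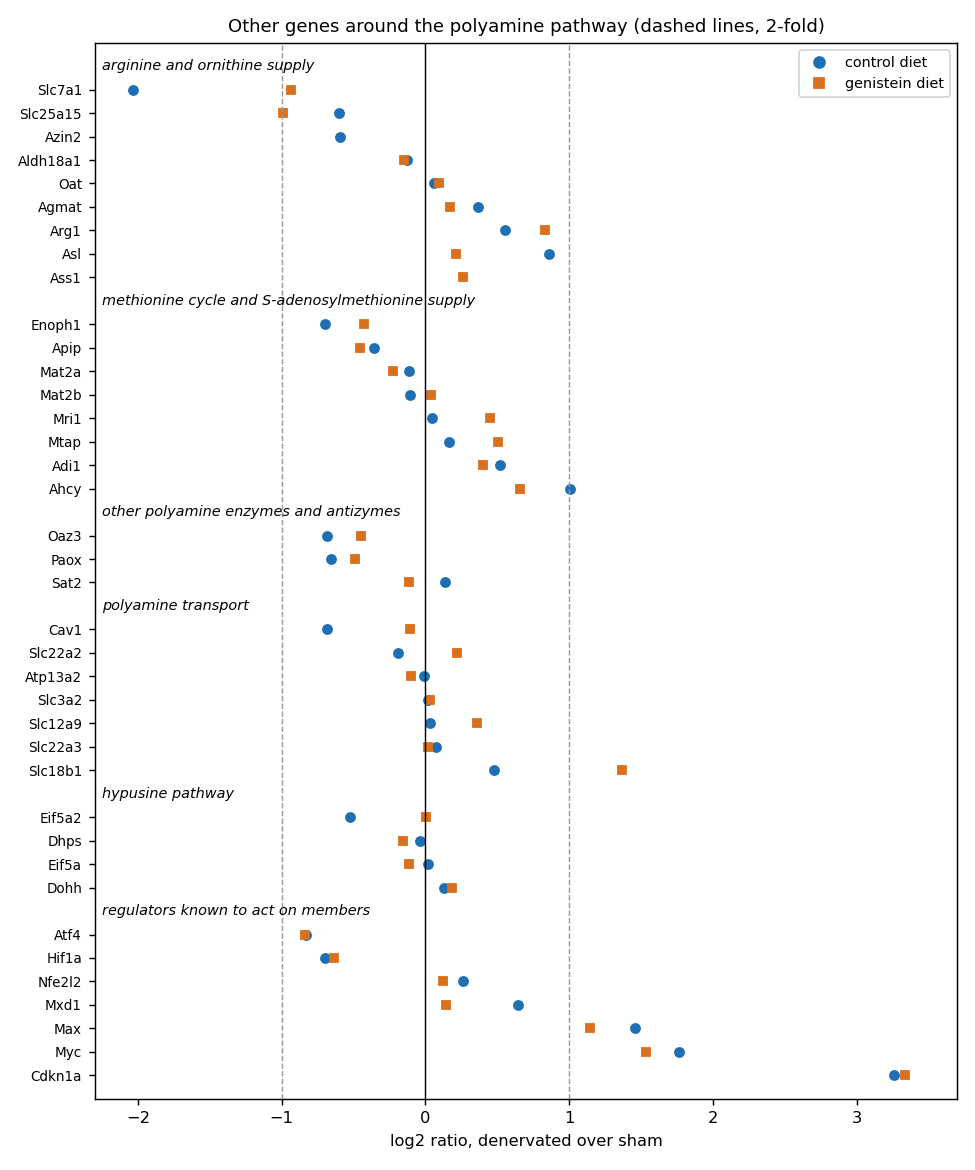
Log2 ratio of denervated to sham muscle (horizontal axis) for the measured genes of the 6 lists around the polyamine pathway, on the control diet (circles) and on genistein (squares), with dashed lines at 2-fold. On the brightest probe sets, which are the ones drawn, Cdkn1a, Myc and Max lie beyond 2-fold on both diets. Slc7a1 has the lowest ratio, -2.03 on the control diet.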

How the data were processed

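RNA of 4 soleus pools was measured on 1 array each. The authors deposited linear signal intensities per probe set, and the submitters' processing notes name GCOS 1.1, Affymetrix's operating software. What the arrays were scaled to, and any genome build, are not given in the sources used here. Of 31099 probe sets, 57 controls were set aside. The platform annotation gave 1 symbol for 20826, several for 436 and none for 9780, and only the first were named. By gene identifier 20758 matched RefSeq on GRCr8, and 0 of the 9 polyamine symbols changed.

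Ratios were computed with numpy 2.4.6 and pandas 2.3.3 as differences of log2 signals, with the floor at the 40th percentile (78.9 units), the brightest probe set per gene and 2-fold as the size counted. The steps were tested on simulated data. Within a diet, sham and denervated muscle are the right and left legs of the same rats. The 9 genes and all lists were chosen with earlier results of these data known. Named beyond the 9 were list genes past 2-fold, a set of pathway neighbours (Arg2, Oat, Paox, Mat2a, Slc3a2, Eif5a, Myc and Cdkn1a; another is not reported here) and the 5 profiles nearest to Sat1. Others (Slc25a15, Arg1, Dhps, Dohh, Eif5a2 and Atf4) were chosen after their values were seen. The alternatives were 3 other scalings, 3 other floors, the mean of probe sets and a 1.5-fold size. Cell type markers were summed per array.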

Additional observations from a re-analysis of the deposited data

How the results depend on the processing

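The signs of the denervation ratios of Odc1, Sms, Sat1, Smox and Oaz1 were the same in both diets under each alternative run. The number of the 9 genes counted higher on the control diet was 2 under median scaling, under hybridisation control scaling and at 1.5-fold, Sms being the added gene. The number counted lower there was 0 under median scaling, quantile normalization and hybridisation control scaling, since Odc1 lies next to 2-fold. On genistein 2 were counted higher under quantile normalization, hybridisation control scaling, the mean of probe sets and 1.5-fold, and 2 lower at 1.5-fold (Odc1 and Smox). Shares of all genes were counted only at 2-fold on the deposited values, so these changed counts have no background beside them. All counts for the diet effects and for the difference between diets stayed at 0. Hybridisation control scaling moved the median of all genes to 0.36 on the control diet and 0.53 on genistein, and relative to that median Odc1 was at -1.03 and -0.96 and Sat1 at 2.11 and 2.48. Median scaling moved the all-gene median of the diet effect in denervated muscle to -0.13. Smox lies near the floor, so its ratios are limited by signal. No paired analysis was possible because each group is 1 pool on 1 array.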

Other observations

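In the gene order of RefSeq, Sms and Sat1 lie on the X chromosome with 7 protein-coding genes between them. Their promoter windows begin at bases 41331753 and 44007839, so they are close in gene order but far apart in bases. This was looked at after the ratios of both genes were known. Of those 7, 3 were on the array and 2 were measured. Acot9, a mitochondrial acyl-CoA thioesterase and the direct neighbour of Sat1, read 1728 and 4365 units in control sham and denervated muscle and 1587 and 4643 on genistein, with log2 ratios of 1.34 and 1.55. Prdx4, a peroxiredoxin, was at 0.13 and 0.11, and Phex was below the floor on all arrays. Of the 5 protein-coding genes past Sms, 3 were on the array and 2 were measured, Mbtps2 (0.80 and 0.54) and Smpx (-0.86 and -0.75), neither past 2-fold. None of the 5 past Sat1 was on the array, so nothing was measured on that side.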
